A study of Mus musculus with 12 samples.

Results

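Transcripts of 10 genes that govern the passage from G1 into S phase were followed in the mouse melanoma line B16F10, a long-established culture model. The genes were chosen by name: the D-type cyclins Ccnd1, Ccnd2 and Ccnd3, the cyclin-dependent kinases Cdk2, Cdk4 and Cdk6, the CDK inhibitor Cdkn1b, and the pocket proteins Rb1, Rbl1 and Rbl2. That choice was made with earlier results of these data known. The chosen genes are 10 of the 54752 genes of the count table, and all 10 were among the 18434 genes with enough reads to be tested. The study holds 12 RNA libraries in 4 groups of 3, which differ in the genotype given for the cells: Ep300 knockout, Crebbp knockout, knockout of both Ep300 and Crebbp, and control cells labelled WT. They are called Ep300 KO, Crebbp KO, double KO and control below, after the labels. Ep300 and Crebbp encode p300 and CBP, related histone acetyltransferases that act as coactivators of transcription. All groups grew in DMEM with serum. The labels name neither clones nor pools for the knockouts, and nothing in them ties the libraries of a group to separate cultures. The p-values therefore measure the spread between these libraries, which may be technical.

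In G1, D-type cyclins bind CDK4 and CDK6, and the resulting kinases phosphorylate the pocket proteins, which releases E2F transcription factors from repression. CDK2, with cyclin E and then cyclin A, carries the phosphorylation on into S phase, and p27, the product of Cdkn1b, holds CDK2 complexes in check. In melanocytes and melanoma, MITF is the master transcription factor of the pigment lineage, and CDK2 is a known target of it in human melanoma cells. The gene Cdk2 stands head to head with Pmel, a melanosome gene that MITF also controls.

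The upstream promoter sequences of Rbl1, Cdk6, Cdk4 and Cdk2 are shown because, in these 4 genes, the double KO change differed from the sum of the changes in the single knockouts, and a RefSeq promoter entry was at hand. Each runs 5′ to 3′ over the 250 bases before the RefSeq start (build GRCm38.p6, the same assembly as mm10). Rbl1 covers chr2:157204535-157204784 on the minus strand, Cdk6 chr5:3343643-3343892 on the plus strand, Cdk4 chr10:127063285-127063534 on the plus strand and Cdk2 chr10:128705052-128705301 on the minus strand. In the GENCODE gene positions used below, the Cdk2 window lies within the span of Pmel, 128704195 to 128720238. The Cdk6 window lies inside the Cdk6 gene itself, whose span opens at 3341485. Capitals mark the motifs searched on both strands: the E-box CACGTG, bound by basic helix-loop-helix factors such as MITF and MYC, the cAMP-response half-site TGACG, bound by CREB proteins, and TTTNNCGC, a loose form of the E2F site. A motif on the other strand shows as its reverse complement, as with the TGACG of Cdk4 and the TTTNNCGC of Cdk2.
Rbl1: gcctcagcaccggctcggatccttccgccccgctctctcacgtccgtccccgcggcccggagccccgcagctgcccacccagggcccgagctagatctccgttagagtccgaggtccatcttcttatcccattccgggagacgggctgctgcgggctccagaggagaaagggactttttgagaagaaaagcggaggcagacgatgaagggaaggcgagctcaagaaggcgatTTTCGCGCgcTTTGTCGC
Cdk6: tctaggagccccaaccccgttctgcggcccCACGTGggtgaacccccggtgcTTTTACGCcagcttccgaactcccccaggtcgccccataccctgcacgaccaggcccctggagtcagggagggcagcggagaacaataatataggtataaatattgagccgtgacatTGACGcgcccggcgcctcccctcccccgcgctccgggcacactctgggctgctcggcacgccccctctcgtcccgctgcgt
Cdk4: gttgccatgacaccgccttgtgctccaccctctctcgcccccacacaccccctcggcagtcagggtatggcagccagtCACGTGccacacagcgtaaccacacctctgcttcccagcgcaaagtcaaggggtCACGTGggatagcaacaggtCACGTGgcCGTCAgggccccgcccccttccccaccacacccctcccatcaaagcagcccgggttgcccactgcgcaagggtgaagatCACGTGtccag
Cdk2: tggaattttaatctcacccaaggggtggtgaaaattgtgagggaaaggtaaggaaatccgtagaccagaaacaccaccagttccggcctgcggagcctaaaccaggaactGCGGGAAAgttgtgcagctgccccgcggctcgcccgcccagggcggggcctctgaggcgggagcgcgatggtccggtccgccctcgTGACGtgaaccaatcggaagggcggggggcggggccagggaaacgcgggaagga

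Cdk4 holds 4 copies of CACGTG, which begin at -172, -118, -98 and -11 from the start, and a TGACG at -90. At least 1 copy of CACGTG was present in 6.02% of the 32851 RefSeq promoter windows of the same length, and at least 4 copies in 0.0213% of them, which is 7 windows. Cdk6 holds 1 CACGTG at -220, a TGACG at -81 and a TTTNNCGC at -198. Cdk2 holds a TGACG at -54 and a TTTNNCGC at -140, and no CACGTG in this window. Rbl1 holds a pair of TTTNNCGC matches, at -18 and -8. TGACG was present in 17.8% of all windows and TTTNNCGC in 4.28%. A further E-box, CATGTG, was present in 12.3% of all windows and in 0 of the 8 windows matched to 7 of the 10 genes. No match shown shares bases with a match of another motif. These matches describe letters in a window and are not measured binding.

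Library totals ran from 64257251 to 85604243 counts. Levels are given as CPM, counts scaled to a common total after TMM scaling (trimmed mean of M values), and changes as log2 fold changes ± SE from edgeR's quasi-likelihood test, with p-values adjusted over all tested genes and a threshold of 0.05. TMM factors averaged 1.11 in double KO and 0.943 in control, a log2 difference of 0.24. Scaling by library totals instead moved the median log2 fold change of all tested genes in double KO against control to 0.22, so every double KO change below is relative to the bulk of the genes. Melanocyte markers were present in all groups: the 7 markers (Mitf, Sox10, Pmel, Tyr, Tyrp1, Dct, Mlana) summed to between 14300 and 15000 CPM in Ep300 KO, 18400 and 19200 in Crebbp KO, 6530 and 6690 in double KO, and 19400 and 21400 in control. The 5 fibroblast markers, of which Col1a1, Pdgfra and at most Col1a2 exceeded 1 CPM, summed to 14.5 to 19.4 CPM in Ep300 KO, 8.54 to 12.3 in Crebbp KO, 12.7 to 13.8 in double KO and 6.37 to 8.14 in control, and their part in the results below was not tested. The 5 immune markers summed to at most 7.31 CPM, with Cd3e or Ptprc at 0 in every group. Endothelial and epithelial markers summed to at most 0.56 CPM. Crebbp averaged 80.7 ± 11.9 CPM in Ep300 KO, 34.5 ± 3.60 in Crebbp KO, 63.99 ± 6.13 in double KO and 64.7 ± 7.00 in control (SD, n = 3 each). Ep300 averaged 85.1 ± 8.80 CPM in Ep300 KO, 104.3 ± 12.4 in Crebbp KO, 148.3 ± 11.1 in double KO and 94.4 ± 7.72 in control. Thus Crebbp fell in Crebbp KO (-0.91 ± 0.12, adjusted p = 0.000527), Ep300 did not pass in Ep300 KO, and in the libraries labelled double KO Ep300 was higher (0.65 ± 0.10, adjusted p = 7.33e-05) and Crebbp did not pass. Counts summed over a gene do not tell which exons remain and are no check on loss of the proteins, and directions below are between groups as labelled. The libraries farthest from their own group means were Ep300 KO 3, Crebbp KO 3 and control 2. Ep300 KO 3 was the highest of its group for 7 of the 10 genes, and Crebbp KO 3 the lowest for 6.

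Per kilobase of exon, the 10 genes spanned a wide range in control libraries. Cdk4 led at 131.5 ± 11.2 RPKM (SD, n = 3), followed by Ccnd2 at 91.7 ± 1.96, Cdk2 at 55.2 ± 0.460 and Cdkn1b at 48.4 ± 5.21. Ccnd1 stood at 22.6 ± 1.24 RPKM and Rbl1 at 20.1 ± 0.790. Below them came Ccnd3 at 8.55 ± 0.379, Rbl2 at 6.03 ± 0.264, Rb1 at 4.01 ± 0.532 and Cdk6 at 2.51 ± 0.248 RPKM. No neighbours in this order overlapped between control libraries. Ccnd2 was thus the main D-type cyclin transcript and Cdk4 the main transcript among the 3 kinases. Exon length here is the union of all annotated exons of a gene, 8775 bases for Ccnd3, 4709 for Ccnd1 and 13989 for Cdk6. Where the cells use shorter transcripts, values per kilobase come out too low, so the order between genes depends on the annotation. In CPM, Ccnd3 averaged 75.05 and Ccnd1 106.5 in control.

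**Figure D1:**
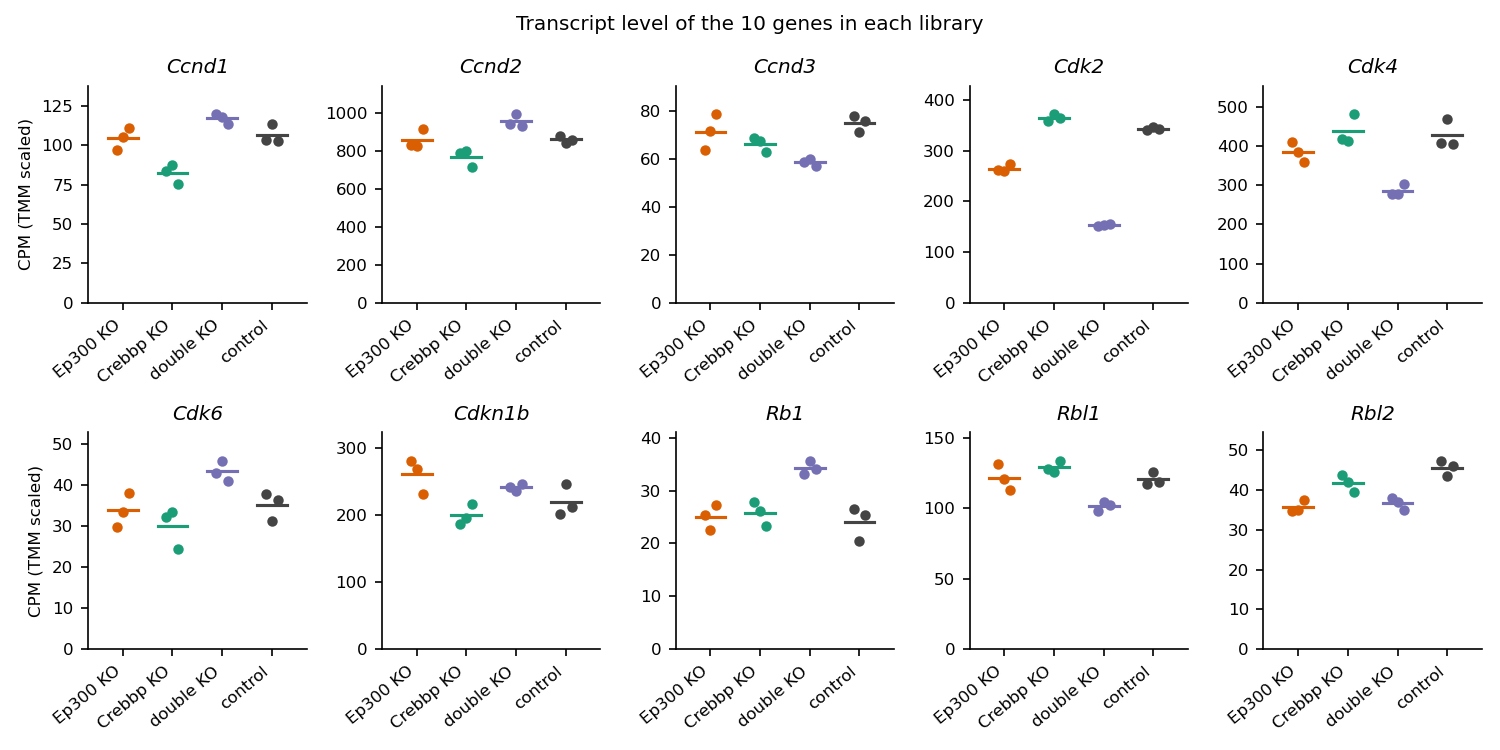
Transcript level of each of the 10 genes (vertical axis, CPM after TMM scaling, from 0; each gene has its own scale) in Ep300 KO, Crebbp KO, double KO and control. Points are libraries and lines are group means of 3; Cdk2 and Cdk4 lie lowest and Rb1 highest in double KO, with no library of another group beyond them.

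Among the libraries labelled double KO, 7 of the 10 genes changed against control: Cdk2, Cdk4, Ccnd3, Rbl1 and Rbl2 were lower, and Cdk6 and Rb1 were higher. In that comparison 49.4% of all tested genes were called, 24.7% higher and 24.6% lower. Ep300 KO changed 2 genes of the 10, both lower (Cdk2, Rbl2), where 16.1% of all tested genes were called (7.27% higher, 8.83% lower), a share near that of the 10. Without Ep300 KO 3, Crebbp KO 3 and control 2, Ep300 KO had 5 calls, and all tested genes had 4669 against 2969. Cdkn1b was higher in that fit (0.41 ± 0.06, adjusted p = 9.5e-06), and Ccnd3 and Cdk6 were lower in addition. The libraries left out had been picked for their distance from their group means, which narrows the spread within groups by construction. Crebbp KO changed 1, Ccnd1, which was lower, where 3.13% of all tested genes were called (1.52% higher, 1.61% lower). Libraries of the compared groups did not overlap in 2 of the 10 genes in Ep300 KO, 4 in Crebbp KO and 9 in double KO, beside 28.4%, 20.5% and 59.7% of all tested genes. The median log2 change of the 10 genes was -0.04 in Ep300 KO, -0.13 in Crebbp KO and -0.06 in double KO, beside 0.01, -0.01 and -0.02 over all tested genes. Scaled by library totals, double KO again had 7 calls, but 5 were higher (Ccnd1, Ccnd2, Cdk6, Cdkn1b, Rb1) and 2 lower (Cdk2, Cdk4). Over all tested genes the split then moved to 6955 higher and 2616 lower, against 4560 and 4542 with TMM.

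**Figure D2:**
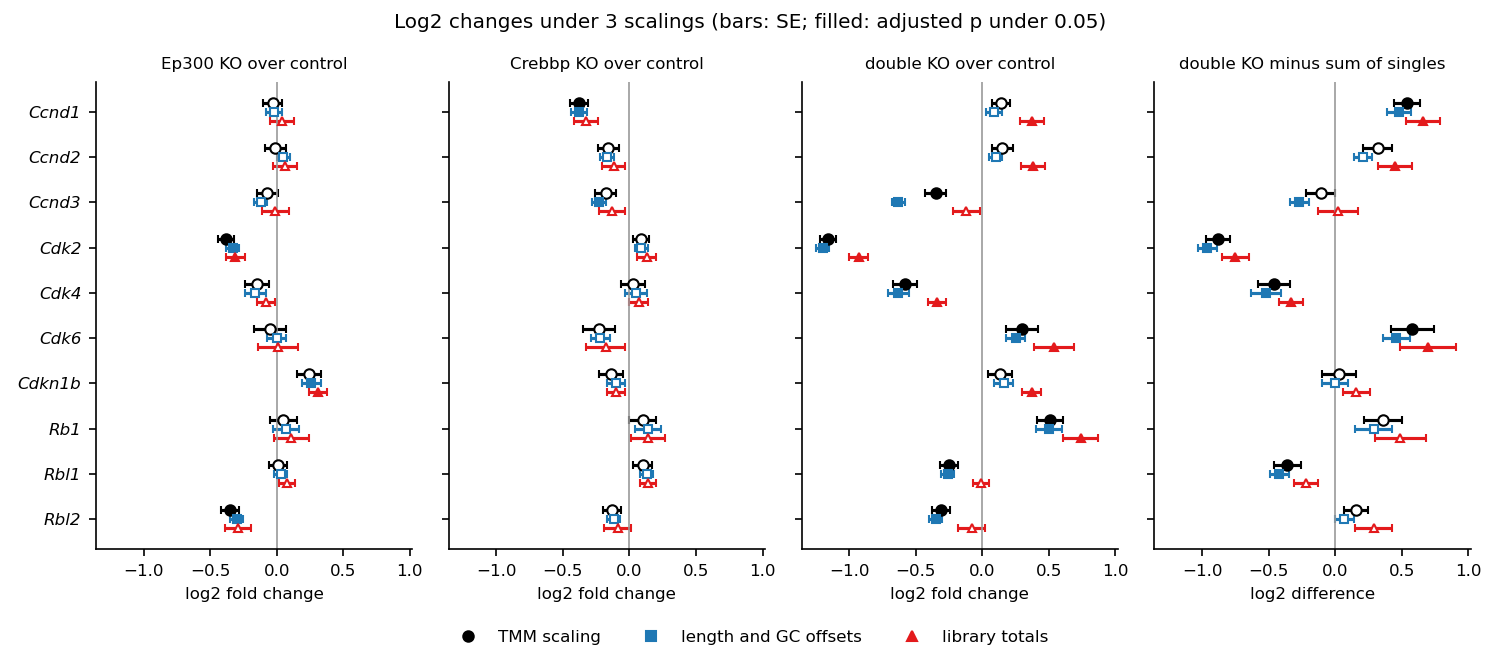
Log2 fold changes of the 10 genes against control in each knockout group, and the double KO change minus the sum of the changes in the single knockouts (horizontal axis, log2). Bars are SE, filled symbols have an adjusted p under 0.05, and colours are scalings; the double KO values of Ccnd3, Rbl1 and Rbl2 are called lower with TMM scaling and not with library totals, while Cdk2 and Cdk4 are called lower with all 3 scalings.

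The D-type cyclins are the G1 cyclins that answer to growth signals. Ccnd1 encodes cyclin D1. It had 97.0, 105 and 111 CPM in Ep300 KO libraries, 83.6, 87.3 and 75.4 in Crebbp KO and 119.7, 118 and 113 in double KO, against 103, 113 and 103 in control. Crebbp KO libraries lay below all others, and double KO libraries lay above all others, by a narrow margin over control 2. Ccnd1 fell in Crebbp KO (-0.38 ± 0.07, adjusted p = 0.0124), a call lost when only the groups compared were fitted (adjusted p = 0.0507) and with library totals (adjusted p = 0.0749). Its change was -0.03 ± 0.07 in Ep300 KO (adjusted p = 0.852) and 0.14 ± 0.07 in double KO (adjusted p = 0.14). With library totals the double KO value became 0.37 ± 0.09 (adjusted p = 0.00311).

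Ccnd2, cyclin D2, was the most abundant of the 3 cyclins per exon length in every library. Its level was 832, 830.2 and 915 CPM in Ep300 KO, 793, 799 and 718 in Crebbp KO and 945, 996 and 932 in double KO, against 882, 846 and 861 in control. The double KO libraries were the highest and the Crebbp KO libraries the lowest, with no overlap with control on either side. Neither difference passed over all genes: 0.15 ± 0.08 in double KO (adjusted p = 0.122) and -0.16 ± 0.08 in Crebbp KO (adjusted p = 0.28). In double KO against control, DESeq2 called it higher (adjusted p = 0.0406), as did library totals (0.38 ± 0.09, adjusted p = 0.00253).

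Ccnd3, cyclin D3, went the other way. Ep300 KO libraries held 63.7, 71.6 and 78.7 CPM, Crebbp KO 68.8, 67.7 and 63.0 and double KO 58.9, 60.2 and 57.1, against 77.9, 71.4 and 75.9 in control. All double KO libraries lay below every other library. Crebbp KO libraries also lay below control, at -0.18 ± 0.08 (adjusted p = 0.241), a value called in 1 of 22 alternatives. Ep300 KO gave -0.07 ± 0.08 (adjusted p = 0.602). The fall in double KO was -0.35 ± 0.08 (adjusted p = 0.00115). That value depended on the scaling, at -0.63 ± 0.05 with offsets for exon length and GC content and -0.12 ± 0.10 with library totals (adjusted p = 0.358).

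Within the D-cyclin pool, shares per exon length do not depend on the scaling between libraries. Their size does depend on the annotated exon lengths, which are the same for every library. Ccnd3 made up 6.68 ± 0.372% of the 3 transcripts in Ep300 KO, 7.10 ± 0.137% in Crebbp KO and 5.02 ± 0.0399% in double KO, against 6.96 ± 0.255% in control (SD, n = 3 each). The double KO share was lower in all 3 libraries (4.98 to 5.06%, against 6.67 to 7.12% in control). Ccnd1 took 16.3 ± 0.318% in Crebbp KO, against 18.4 ± 1.13% in control, again without overlap. Ccnd2 held 76.6 ± 0.186% in Crebbp KO and 76.3 ± 0.528% in double KO, against 74.6 ± 0.875% in control. Each of these differences had an exact two-sided permutation p of 0.1, the smallest that 3 against 3 libraries allow. Because shares sum to a fixed total, that of Ccnd2 was higher in Crebbp KO although its CPM was lowest there.

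**Figure D3:**
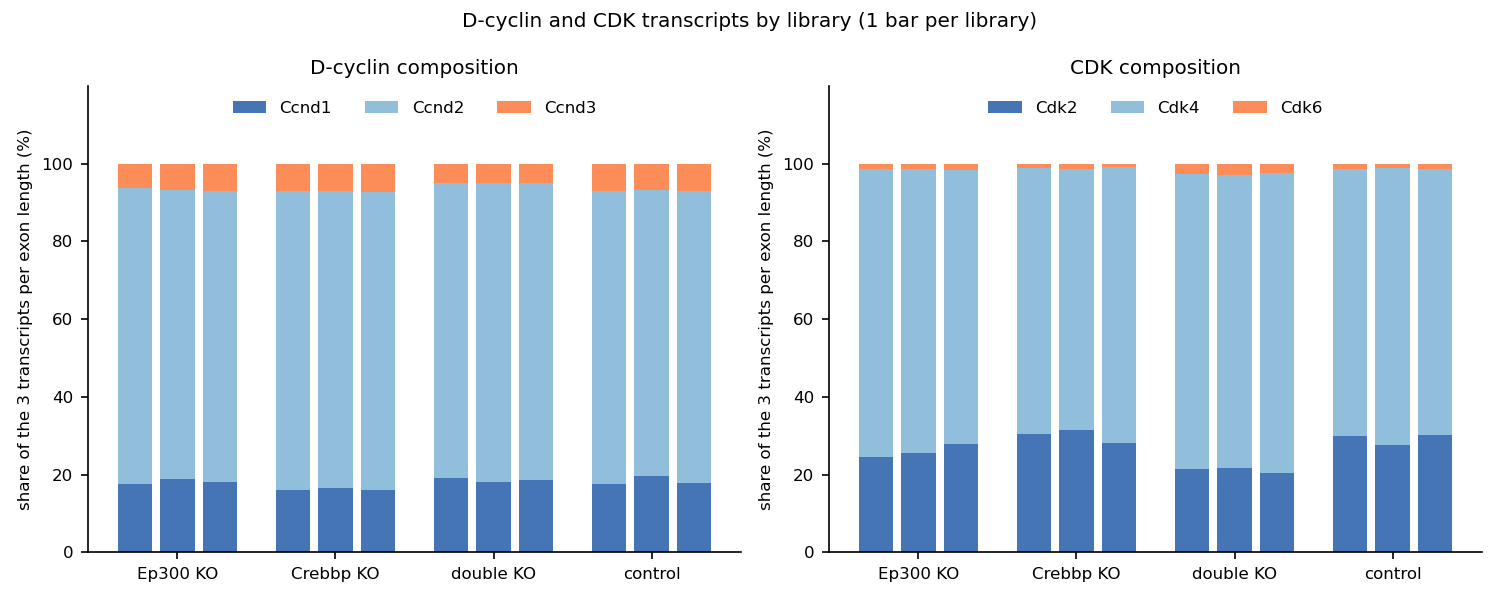
Share of each transcript per exon length (vertical axis, %) within the D-type cyclins Ccnd1, Ccnd2 and Ccnd3 (left) and within the kinases Cdk2, Cdk4 and Cdk6 (right), with 1 bar per library. Ccnd3 takes 5.02% of the cyclin pool in double KO and 6.96% in control, and Cdk2 takes 21.3% of the kinase pool in double KO and 29.2% in control.

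Cdk2, the S-phase kinase, showed the widest range of the 10 genes, 1.25 between the highest and lowest group mean on the log2 CPM scale, where the others ranged over 0.32 to 0.61. It had 261, 259 and 274 CPM in Ep300 KO libraries, 359, 372 and 364 in Crebbp KO and 151, 154 and 155 in double KO, against 341, 347 and 342 in control. The 4 groups were fully separated, in the order double KO, Ep300 KO, control, Crebbp KO. Cdk2 fell to 0.446 times the control level in double KO (-1.16 ± 0.06, adjusted p = 5.89e-10). It also fell in Ep300 KO (-0.38 ± 0.06, adjusted p = 0.000393), while Crebbp KO gave 0.09 ± 0.06 (adjusted p = 0.476). Both calls were made in all 22 alternative fits, which gave -1.20 to -0.93 in double KO and -0.40 to -0.31 in Ep300 KO. The summed melanocyte markers were also lowest in double KO and next lowest in Ep300 KO, but in Crebbp KO they lay below control where Cdk2 lay above it. Their part in this result was not tested. In bulk RNA, fewer cells of a type and less RNA per cell cannot be told apart.

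Cdk4, a kinase partner of the D-type cyclins, had 411, 386 and 359 CPM in Ep300 KO, 418, 414 and 481 in Crebbp KO and 278, 277 and 304 in double KO, against 408, 469 and 405 in control. The double KO libraries were the lowest of all 12, and control overlapped both single knockouts. Cdk4 fell in double KO (-0.58 ± 0.09, adjusted p = 6.76e-05), by less with library totals (-0.34 ± 0.07, adjusted p = 0.000431). Its change was -0.15 ± 0.09 in Ep300 KO (adjusted p = 0.309) and 0.03 ± 0.09 in Crebbp KO (adjusted p = 0.872). Of the exon bases of Cdk4, 19.7% are also exon of Tspan31 on the opposite strand, so its count may miss or share reads there.

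Cdk6, the other D-cyclin kinase, was the scarcest of the 10 per kilobase. Its level was 29.8, 33.5 and 38.1 CPM in Ep300 KO, 32.1, 33.4 and 24.4 in Crebbp KO and 43.0, 45.9 and 41.0 in double KO, against 37.8, 31.1 and 36.2 in control. The double KO libraries were above all others. The rise was 0.30 ± 0.12 (adjusted p = 0.0404), close to the threshold. Among left-out libraries it was lost without control 2 (0.23, adjusted p = 0.15), control 3 (0.33, 0.0639), double KO 1 (0.31, 0.0773), double KO 2 (0.26, 0.129) or Ep300 KO 2 (0.30, 0.0525). With library totals it was 0.54 ± 0.15 (adjusted p = 0.00682). In the kinase pool, Cdk6 took 2.68 ± 0.243% in double KO against 1.33 ± 0.202% in control, Cdk2 21.3 ± 0.696% against 29.2 ± 1.47%, and Cdk4 76.0 ± 0.936% against 69.4 ± 1.67% (SD, n = 3 each). No library overlapped in these 3 shares, and the exact permutation p was 0.1 for each. Shares of a pool sum to a fixed total, so that of Cdk4 was higher in double KO although its level was lower.

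Cdkn1b, which encodes p27, had 281, 269 and 232 CPM in Ep300 KO, 187, 196 and 216 in Crebbp KO and 242, 236 and 247 in double KO, against 202, 247 and 212 in control. The 3 control libraries overlapped those of each knockout group, with control 2 level with double KO. No change against control passed: 0.24 ± 0.09 in Ep300 KO (adjusted p = 0.0925), -0.14 ± 0.09 in Crebbp KO (adjusted p = 0.452) and 0.13 ± 0.09 in double KO (adjusted p = 0.257). The Ep300 KO value was called higher in 6 of 22 alternatives, among them without Ep300 KO 3 (0.32 ± 0.09, adjusted p = 0.0256) and without control 2 (0.33 ± 0.09, adjusted p = 0.022).

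The pocket proteins diverged in double KO. Rb1, the retinoblastoma gene, had 25.3, 22.6 and 27.3 CPM in Ep300 KO, 27.9, 26.2 and 23.4 in Crebbp KO and 33.2, 35.7 and 34.1 in double KO, against 26.5, 20.5 and 25.3 in control. The double KO libraries were above all others, and Rb1 rose there by 0.51 ± 0.10 (adjusted p = 0.000592), a call made in all 22 alternatives (0.40 to 0.74). It did not pass in Ep300 KO (0.05 ± 0.10, adjusted p = 0.793) or Crebbp KO (0.10 ± 0.10, adjusted p = 0.651).

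Rbl1 encodes p107, the pocket protein that is itself an E2F target. Its level was 131, 121 and 113 CPM in Ep300 KO, 128, 126 and 134 in Crebbp KO and 98.1, 104 and 102 in double KO, against 117, 126 and 118 in control. The double KO libraries stood below the rest. The fall was -0.25 ± 0.07 (adjusted p = 0.007), and with library totals the value was -0.01 ± 0.06 (adjusted p = 0.926). Changes were 0.01 ± 0.07 in Ep300 KO (adjusted p = 0.935) and 0.10 ± 0.07 in Crebbp KO (adjusted p = 0.475).

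Rbl2 encodes p130, the pocket protein of quiescent cells. It had 34.8, 35.0 and 37.6 CPM in Ep300 KO, 43.9, 42.0 and 39.5 in Crebbp KO and 38.1, 36.9 and 35.0 in double KO, against 47.4, 43.4 and 46.0 in control. Ep300 KO and double KO libraries overlapped each other and lay below every control and Crebbp KO library. Rbl2 fell in Ep300 KO (-0.35 ± 0.07, adjusted p = 0.00146) and in double KO (-0.31 ± 0.07, adjusted p = 0.00103), and the Crebbp KO value was -0.13 ± 0.07 (adjusted p = 0.343). Both calls were lost with library totals, at -0.29 ± 0.10 (adjusted p = 0.0586) in Ep300 KO and -0.08 ± 0.10 (adjusted p = 0.508) in double KO.

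Set against the single knockouts directly, double KO differed from Crebbp KO in 9 of the 10 genes, 5 higher and 4 lower, where 43.2% of all tested genes were called (21.4% higher, 21.8% lower). In all 10 the libraries did not overlap, beside 56.5% of all tested genes. Ccnd1 was higher in double KO than in Crebbp KO (0.51 ± 0.07, adjusted p = 5.1e-05), as were Ccnd2 (0.31 ± 0.08, 0.00394), Cdk6 (0.53 ± 0.12, 0.00185), Rb1 (0.41 ± 0.10, 0.00354) and Cdkn1b (0.27 ± 0.09, 0.0259). Cdk2 was lower (-1.25 ± 0.06, adjusted p = 3.27e-10), with Cdk4 (-0.61 ± 0.09, 5.04e-05), Rbl1 (-0.34 ± 0.07, 0.000779) and Rbl2 (-0.19 ± 0.07, 0.031). Ccnd3 did not pass (-0.18 ± 0.08, adjusted p = 0.0672). It was called lower in 6 of 22 alternatives, and its values over all 22 ran from -0.39 to 0.01. With library totals the calls were 5 higher and 2 lower, since Rbl1 and Rbl2 did not pass. The Cdkn1b call was also lost without Crebbp KO 1 (0.23, adjusted p = 0.112), Crebbp KO 2 (0.26, 0.0732), double KO 1 (0.27, 0.0638) or double KO 3 (0.26, 0.0765). The Rbl2 call was lost without Crebbp KO 1 (-0.15, adjusted p = 0.122), Crebbp KO 2 (-0.18, 0.074), double KO 2 (-0.19, 0.074) or double KO 3 (-0.15, 0.132).

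Against Ep300 KO, double KO differed in 6 of the 10 genes, where 34.6% of all tested genes were called (18% higher, 16.6% lower). Libraries did not overlap in 8, beside 47.4% of all tested genes. Cdk6 (0.36 ± 0.12, adjusted p = 0.0272) and Rb1 (0.45 ± 0.10, 0.0028) were higher. Cdk2 (-0.79 ± 0.06, adjusted p = 2.35e-07), Cdk4 (-0.43 ± 0.09, 0.00184), Ccnd3 (-0.28 ± 0.08, 0.00985) and Rbl1 (-0.26 ± 0.07, 0.00853) were lower. Rbl2 gave 0.04 ± 0.07 (adjusted p = 0.713), so its level was not distinguished between double KO and Ep300 KO. With library totals, Ccnd1 (0.33 ± 0.09, adjusted p = 0.0105) and Ccnd2 (0.33 ± 0.09, 0.0121) were called higher and Ccnd3 and Rbl1 were not called, a split of 4 higher and 2 lower. The Cdk6 call was lost without Ep300 KO 1 (0.27, adjusted p = 0.117), Ep300 KO 2 (0.35, 0.0777), double KO 1 (0.36, 0.0608) or double KO 2 (0.31, 0.101). The Ccnd1 value, 0.17 ± 0.07 (adjusted p = 0.0945), was called without Ep300 KO 3 (0.21, adjusted p = 0.041).

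The single knockouts differed from each other in 4 of the 10 genes, where 13.6% of all tested genes were called (6.26% higher, 7.37% lower). Libraries did not overlap in 6, beside 27.1% of all tested genes. Ccnd1 (0.35 ± 0.07, adjusted p = 0.00456) and Cdkn1b (0.38 ± 0.09, 0.0106) were higher in Ep300 KO than in Crebbp KO. Cdk2 (-0.46 ± 0.06, adjusted p = 6.87e-05) and Rbl2 (-0.22 ± 0.07, 0.034) were lower. The calls of Ccnd1 and Cdk2 were made in all 22 alternatives. That of Rbl2 was lost in 9 and that of Cdkn1b in 3, which were without Ep300 KO 1 (0.33, adjusted p = 0.0545), Ep300 KO 2 (0.36, 0.0528) or Crebbp KO 1 (0.34, 0.0655). The Rbl2 losses among left-out libraries were Ep300 KO 1 (-0.20, adjusted p = 0.0979), Ep300 KO 2 (-0.21, 0.114), Crebbp KO 1 (-0.19, 0.145), Crebbp KO 2 (-0.22, 0.099) and double KO 2 (-0.23, 0.0522).

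The design also allows a test of whether the double KO change equals the sum of the changes in the single knockouts on the log2 scale. It did not for 5 of the 10 genes, where 10.3% of all tested genes were called (5.33% higher, 4.96% lower). Cdk2 lay below the sum, at -0.88 ± 0.09 (adjusted p = 1.67e-05): single changes of -0.38 and 0.09 stood beside -1.16 in double KO. Ccnd1 lay above it, at 0.54 ± 0.10 (adjusted p = 0.00398), since -0.03 and -0.38 stood beside 0.14. Both held in all 21 alternatives, over -0.96 to -0.75 for Cdk2 and 0.48 to 0.66 for Ccnd1. Cdk4 (-0.46 ± 0.12, adjusted p = 0.0277), Rbl1 (-0.36 ± 0.10, 0.0277) and Cdk6 (0.58 ± 0.16, 0.0358) passed by less. Their calls were lost in 8, 12 and 9 of the 21 alternatives.

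Among left-out libraries, Cdk4 lost its call in the additivity test without Ep300 KO 1 (-0.41, adjusted p = 0.066), Ep300 KO 2 (-0.46, 0.0745), Crebbp KO 3 (-0.39, 0.0635), double KO 1 (-0.44, 0.0754), double KO 2 (-0.44, 0.0791), control 1 (-0.43, 0.0753) or control 3 (-0.42, 0.0925). Cdk6 lost its own without the same 7 libraries or double KO 3, with values of 0.46 to 0.62 and adjusted p of 0.0534 to 0.093. Rbl1 lost its own without these 8 or Crebbp KO 1, with values of -0.38 to -0.30 and adjusted p of 0.0515 to 0.0867. The direction did not change in any of these fits. Ccnd2 (0.32 ± 0.11, adjusted p = 0.0739) was called in 6 alternatives and Rb1 (0.36 ± 0.14, 0.121) in 3. Cdkn1b gave 0.03 ± 0.13 (adjusted p = 0.918), Ccnd3 -0.11 ± 0.11 (adjusted p = 0.577) and Rbl2 0.16 ± 0.09 (adjusted p = 0.297). Scaled by library totals, the 5 calls were 3 higher (Ccnd1, Ccnd2, Cdk6) and 2 lower (Cdk2, Cdk4).

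Cdk2 and Pmel lie head to head on chromosome 10 of mm10. Cdk2 spans 128697939 to 128705031 on the minus strand and Pmel, a structural protein of melanosome fibrils, 128704195 to 128720238 on the plus strand. Pmel had 1929.6, 1963 and 2049.8 CPM in Ep300 KO, 2684, 2776 and 2723 in Crebbp KO and 998, 996 and 961 in double KO, against 2508, 2470.2 and 2429 in control. The groups fall in the same order as for Cdk2, again without overlap. Pmel fell in double KO (-1.33 ± 0.08, adjusted p = 1.68e-09) and in Ep300 KO (-0.32 ± 0.08, adjusted p = 0.00783), and gave 0.14 ± 0.07 in Crebbp KO (adjusted p = 0.344). On the log2 scale, Cdk2 over Pmel was -2.90 ± 0.02 in Ep300 KO, -2.90 ± 0.00 in Crebbp KO, -2.68 ± 0.04 in double KO and -2.85 ± 0.03 in control (SD, n = 3 each).

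Mitf, the lineage factor, had 711, 654 and 639 CPM in Ep300 KO, 840.0, 842 and 848 in Crebbp KO and 354, 365 and 347 in double KO, against 933, 942 and 901 in control. It fell in double KO (-1.38 ± 0.07, adjusted p = 4.93e-10) and in Ep300 KO (-0.47 ± 0.07, adjusted p = 0.000201). In Crebbp KO it gave -0.13 ± 0.07 (adjusted p = 0.347), and there its 3 libraries lay below control where those of Cdk2 lay above. Likeness to Cdk2 was ranked among 9435 genes that averaged at least 5 CPM, with predicted, clone-named and pseudogene symbols left out. Those whose log2 CPM followed Cdk2 most closely over the 12 libraries were Pmel (r = 0.996), Tspan10 (0.996), Slc24a5 (0.995), Rasa3 (0.991) and Tmem268 (0.990). Mitf stood at rank 30 (r = 0.983). These correlations describe libraries that fall into 4 separated groups with shared scaling, and no test is attached to them.

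**Figure D4:**
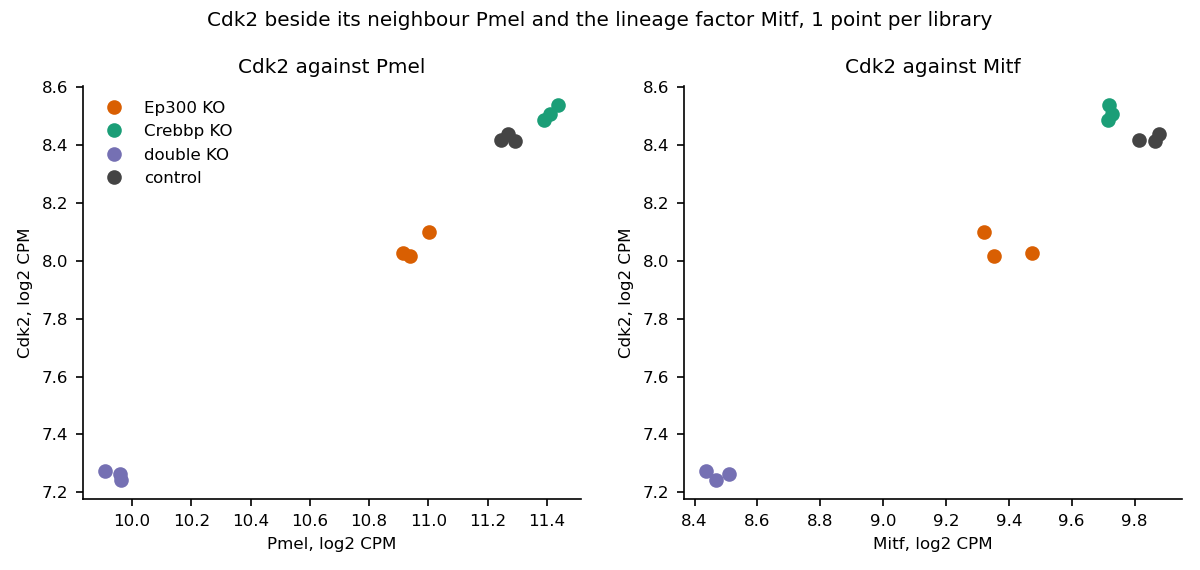
Cdk2 (vertical axis, log2 CPM) against its neighbour Pmel (left) and against Mitf (right), both in log2 CPM, with 1 point per library coloured by group. Double KO libraries lie lowest on all 3 genes; Crebbp KO libraries lie above control for Pmel and Cdk2 and below control for Mitf.

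The shared stretch limits how far counts of the neighbours are separate. Cdk2 and Pmel share 34 exon bases on opposite strands, 0.547% of the Cdk2 exon, and 13.5% of Cdk2 exon bases (837 of 6219) lie within the span of Pmel. The kit marks strand, and the strand setting of the counting is not given in the sources used here. Of 160 genes lying wholly inside exons of an opposite-strand gene with at least 12000 counts, all 160 had 0 counts in every library, a pattern that counting without strand would give where reads shared by overlapping genes are dropped. Whether Pmel reads reached the Cdk2 count was not tested. Other members overlap opposite-strand exons as well: 23.4% of Ccnd1 exon bases are shared with LTO1, 11.8% of Rbl2 with Gm45464 and 9.17% with Aktip, 8.11% of Rb1 with Rcbtb2 and 6.78% with Lpar6, and 4.11% of Ccnd3 with Bysl.

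The nearest tested genes on either side of Cdk2 and Pmel were not lower. Rab5b, a GTPase of early endosomes and the nearest tested gene beyond Cdk2, rose in double KO (0.36 ± 0.06, adjusted p = 0.000273). Dgka, a diacylglycerol kinase and the nearest beyond Pmel, rose there too, at 4.84 ± 0.139 CPM against 1.64 ± 0.201 CPM in control (1.57 ± 0.13, adjusted p = 1.53e-07). Dgka spans 128720134 to 128744855 on the minus strand and so overlaps the end of Pmel at 128720238. Its low count may miss or share reads there, which was not tested. Within 100 kb of the pair, 14 genes were tested, Cdk2 and Pmel among them, of which 5 were higher and 5 lower in double KO, where 49.4% of all tested genes were called. Further genes of the window are named after their values were seen. Suox (1.89 ± 0.13, adjusted p = 1.32e-08), Mmp19 (2.61 ± 0.41, 9.94e-05) and Pym1 (0.32 ± 0.07, 0.00206) were higher. Levels were low for Mmp19, at 0.904 CPM in double KO and 0.145 in control, and for Suox, at 4.89 and 1.32. Rps26 (-0.24 ± 0.07, adjusted p = 0.00884), the ribosomal protein pseudogene Rpsa-ps2 (-0.42 ± 0.09, 0.0016) and Ormdl2 (-0.36 ± 0.11, 0.0162) were lower; the pseudogene may share reads with Rpsa, so its value is uncertain.

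**Figure D5:**
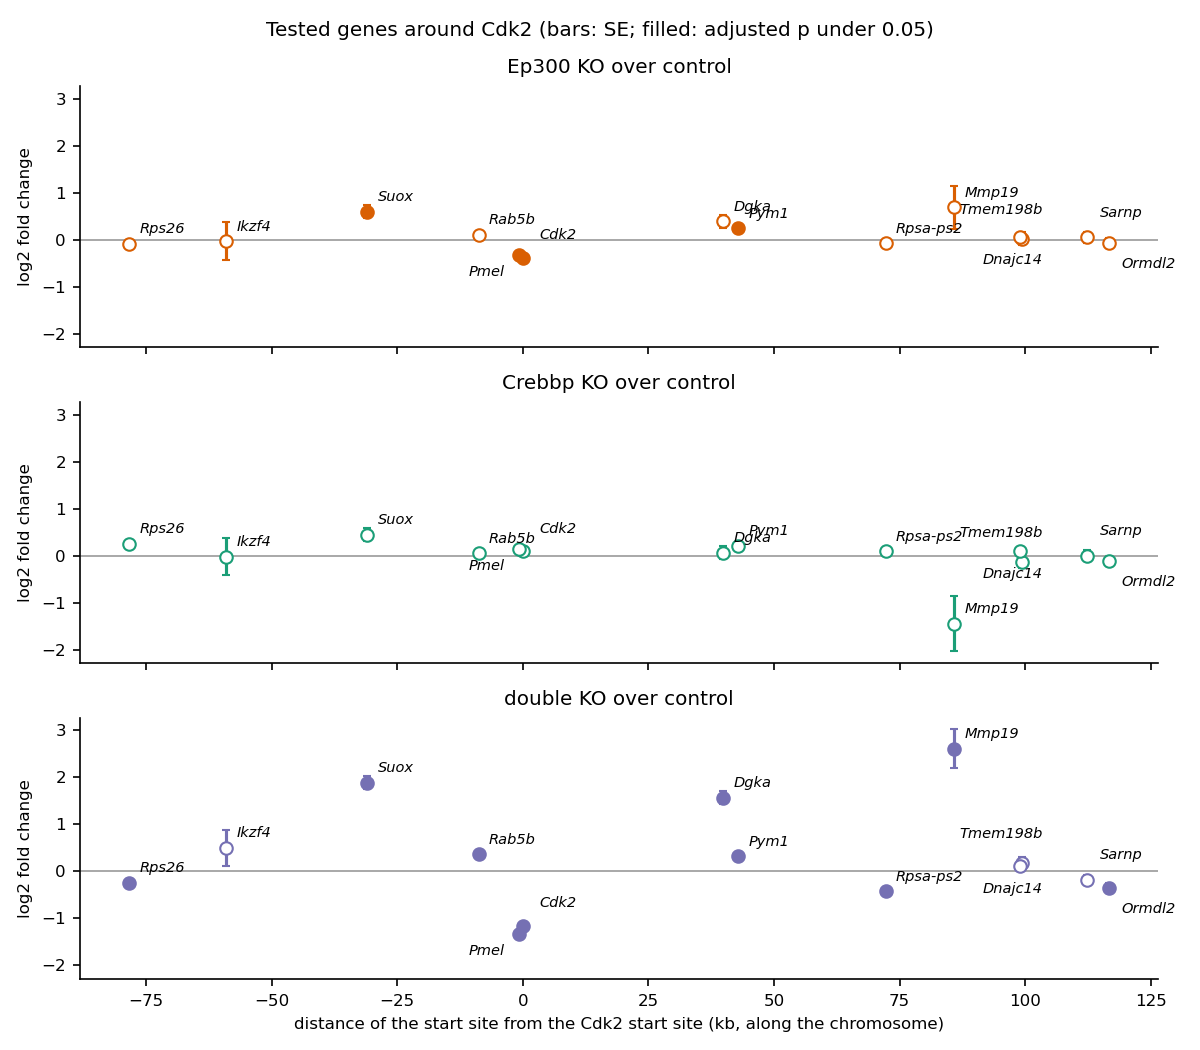
Log2 fold changes against control (vertical axis, bars SE, filled symbols adjusted p under 0.05) of the tested genes around Cdk2, by the distance of each start site from that of Cdk2 (horizontal axis, kb), in Ep300 KO, Crebbp KO and double KO. In double KO, Cdk2 at -1.16 and Pmel at -1.33 lie far below their flanking genes Rab5b at 0.36 and Dgka at 1.57.

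Another 37 genes of the G1/S network were read alongside: cyclins E and A, other CDK inhibitors, E2F and DP factors, the SCF-SKP2 ligase, the CDK-activating kinase and the DREAM complex. Cdkn2a and Cdkn2b, which encode INK4 inhibitors of CDK4 and CDK6, had 0 counts in all 12 libraries. A count of 0 allows up to 3 counts, or 0.035 to 0.0467 CPM on library totals. The other 35 were tested, among them the INK4 genes Cdkn2c and Cdkn2d, which averaged 38.1 and 31.05 CPM in control. In double KO 15 changed, 5 higher and 10 lower (42.9%, against 49.4% of all tested genes), and with library totals 13 were higher and 6 lower. In Ep300 KO 6 changed, 2 higher and 4 lower (17.1%, against 16.1% of all tested genes), and in Crebbp KO 1, which was lower (2.86%, against 3.13%). Both shares lay close to those of all tested genes.

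By smallest adjusted p, the rises in double KO were E2f4, a repressor E2F that pairs with pocket proteins (0.60 ± 0.07, adjusted p = 3.12e-06), Tfdp2, an E2F dimerisation partner (0.51 ± 0.06, 4.17e-06), and E2f7, an atypical repressor (0.59 ± 0.09, 8.54e-05). The falls were E2f5, a relative of E2f4 (-0.61 ± 0.07, adjusted p = 5.77e-06), E2f2, an activator (-0.85 ± 0.11, 1.15e-05), and Skp2, the F-box protein that marks p27 for degradation (-0.40 ± 0.06, 7.3e-05). E2f5 also fell in Ep300 KO (-0.46 ± 0.07, adjusted p = 0.000337) and was the only one of the 35 called in Crebbp KO (-0.44 ± 0.07, 0.00422), where DESeq2 called 4. E2f4 and E2f7 rose in Ep300 KO as well (0.27 ± 0.07, adjusted p = 0.012, and 0.34 ± 0.09, 0.0201). Cdkn1a, which encodes the CDK inhibitor p21 (-0.27 ± 0.07, adjusted p = 0.00881), and Cdc25a, the phosphatase that activates CDK2 (-0.30 ± 0.07, 0.00983), fell in Ep300 KO.

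Double KO against Ep300 KO called 14 of the 35, 6 higher and 8 lower (40%, against 34.6% of all tested genes), with Tfdp2 (0.42 ± 0.06, adjusted p = 7.74e-05) and Skp2 (-0.34 ± 0.06, 0.000744) the smallest adjusted p in each direction. Cks1b, the cofactor of SKP2, was lower there too (-0.58 ± 0.12, adjusted p = 0.00184). Double KO against Crebbp KO called 18, 5 higher and 13 lower (51.4%, against 43.2% of all tested genes, 21.4% higher and 21.8% lower), led by E2f4 (0.39 ± 0.07, adjusted p = 0.000232) and Skp2 (-0.56 ± 0.06, 3.39e-06). With library totals these splits were 7 higher and 3 lower, and 12 higher and 5 lower. Ep300 KO against Crebbp KO called 7 (20%, against 13.6% of all tested genes), and 2 when only the compared groups were fitted. Of the 7, 1 was higher (Cdkn2c, 0.20 ± 0.06, adjusted p = 0.0309) and 6 were lower, led by Cdc25a (-0.44 ± 0.07, 0.000688) and E2f3 (-0.32 ± 0.08, 0.0107). The additivity test called 2 of the 35 (5.71%, against 10.3% of all tested genes): Cdkn1a above the sum of the single changes (0.53 ± 0.09, adjusted p = 0.00222) and Skp2 below it (-0.50 ± 0.09, 0.00205).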

How the data were processed

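RNA was sequenced from B16F10 cells in 12 libraries. Per the labels' protocols, total RNA was purified on Qiagen columns and a KAPA kit for stranded mRNA gave the libraries. The submitters' processing notes name bcl2fastq, HISAT2, HTSeq and build mm10. Their versions, the annotation and the strand setting are not stated in these sources. Values were deposited as raw counts per Ensembl gene, without normalization by the authors. GENCODE M21 gave symbols, positions and exon lengths to 54723 of 54752 genes.

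From these counts, filterByExpr of edgeR left 18434 genes, libraries were scaled by TMM, and groups were compared with the robust quasi-likelihood test in 1 fit of all 12 libraries. The Benjamini-Hochberg adjustment ran over all tested genes in each of 7 comparisons, at a threshold of 0.05. The script was tested on simulated data. RPKM are TMM-scaled counts per kilobase of summed exon. Replicate libraries differed by more than counting noise (chi-square per degree of freedom of at least 10.5). CPM on the log2 scale used a prior count of 1. Depth limits the precision of the lower counts, and limits from a count of 0 cover counting error only.

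Named were the 10 genes, Ep300, Crebbp, Pmel, Mitf, the nearest tested gene on each side of Cdk2 and Pmel, the 3 genes of the wider G1/S list with the smallest adjusted p in each direction (not all are printed), and the 5 genes closest to Cdk2 in pattern. The members and lists were chosen with earlier results of these data known.

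Alternatives were DESeq2, limma-voom, RLE scaling, no filter on low counts, a floor of 1 CPM in 3 libraries, a block for the replicate number, a fit of the compared groups alone, length and GC offsets, and each library left out in turn. Library totals, and leaving out the 3 libraries farthest from their group means, were added after seeing the data. For the shares, raw counts replaced counts per exon length. Software was edgeR 4.0.16, DESeq2 1.42.0 and limma 3.58.1 in R 4.3.3.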

Additional observations from a re-analysis of the deposited data

Results flagged for a closer look

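In 5 of the 10 genes the double KO log2 change differed from the sum of the single knockout changes, between groups as labelled. Among all tested genes, 10.3% were called in this test. The orders of libraries given here describe levels and do not measure the difference from the sum. Cdk2 gave -0.88 ± 0.09 (adjusted p = 1.67e-05) and was lower in 3 of 3 double KO libraries than in every other library. Ccnd1 gave 0.54 ± 0.10 (adjusted p = 0.00398), with 3 of 3 double KO libraries above those of Crebbp KO, where it was lowest. Cdk4 gave -0.46 ± 0.12 (adjusted p = 0.0277) and Rbl1 -0.36 ± 0.10 (adjusted p = 0.0277), both lowest in the 3 double KO libraries. Cdk6 gave 0.58 ± 0.16 (adjusted p = 0.0358) and was highest in the 3 double KO libraries. The Cdk4, Cdk6 and Rbl1 calls rest on small margins and were lost in 8, 9 and 12 of 21 alternatives.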

How the results depend on the processing

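Over 1530 values of the 10 genes under alternatives, 1417 kept their direction or stayed uncalled, 71 lost and 41 gained a call, and 1 reversed: Rbl2 in double KO against Crebbp KO with library totals (0.004, adjusted p = 0.977). Among uncalled values 34 changed sign. For the 18 shares, 9 of 126 values changed in sign under raw counts and left-out libraries. Their exact p cannot fall below 0.1 with so few libraries, so it is no measure of their stability. Cks1b in Ep300 KO against control was not called in the main fit (-0.03 ± 0.12, adjusted p = 0.899). It was called higher without the 3 farthest libraries (0.213, adjusted p = 0.01).

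Counts of calls among the 10 genes moved in Crebbp KO against control (1 call) to 0 with only the groups compared, 0 with library totals and 2 with offsets, in Ep300 KO against control (2) to 5 without the 3 farthest libraries, and in the additivity test (5) to 2 with the replicate block. Leaving out 1 library gave 2 to 6 in the additivity test and 2 to 4 in Ep300 KO against Crebbp KO.

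Over the wider list, Crebbp KO against control (1) moved to 4 with DESeq2, 5 with offsets and 4 without the 3 libraries, and the additivity test (2) to 5 with DESeq2, 7 with offsets, 11 without the 3 and 4 with no filter. Ep300 KO against Crebbp KO (7) moved to 2 with only the groups compared, 2 with the block, 3 with library totals and 20 without the 3 libraries. Ep300 KO against control (6) moved to 3 with library totals and 16 without the 3, and double KO against Ep300 KO (14) to 22 without the 3. Leaving out 1 library gave 1 to 2 in Crebbp KO against control, 2 to 5 in the additivity test, 1 to 9 in Ep300 KO against Crebbp KO and 7 to 16 in double KO against Ep300 KO.

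Over all genes, Crebbp KO against control (577) moved to 1279 with DESeq2, 1270 with no filter, 257 with only the groups compared, 321 with the block, 1445 with offsets, 1640 without the 3 libraries and 214 to 774 without 1. Without the 3, Ep300 KO against control (2969) gave 4669, Ep300 KO against Crebbp KO (2512) 5745 and the additivity test (1897) 4886, or 1119 to 2861 without 1. The 3 libraries had been picked for their distance from their group means, so leaving them out narrows the spread within groups by construction. The cause of these moves was not tested.

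Library totals changed the split of higher and lower calls in Ep300 KO against control to 1465 and 1096 (TMM 1341 and 1628), in double KO against Ep300 KO to 5301 and 1639 (3315 and 3061), against Crebbp KO to 6104 and 2266 (3942 and 4024), in Ep300 KO against Crebbp KO to 1124 and 882 (1154 and 1358) and in the additivity test to 1255 and 508 (983 and 914).

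The replicate numbers are only shared labels. Libraries of different groups deviated together (correlation over 0.1) in 5 of 18 same-numbered pairs and in 19 of 36 differently numbered ones. The correlations ran from -0.707 to 0.596 in the former and from -0.76 to 0.736 in the latter. Some libraries of different groups thus varied together or in opposite ways, and the source of this was not tested. Under the replicate block, 7 calls of the 10 genes were lost: Cdk6 in double KO against control (0.303, adjusted p = 0.0716) and against Ep300 KO, Rbl2 in double KO and in Ep300 KO against Crebbp KO, and Cdk4, Cdk6 and Rbl1 in the additivity test.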
